A study of Mus musculus with 32 samples.

Results

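Antioxidant defence genes include those of enzymes that dispose of superoxide and peroxides, of heme oxygenase, of a quinone reductase and of glutathione synthesis. The genes described here are Sod1, Sod2, Gpx1, Gpx4, Prdx1, Prdx2, Prdx5, Hmox1, Nqo1 and Gclc, chosen by name as textbook members of this system. Every probe whose symbol in the deposited table was one of these was taken, which gave 16 probes of 10 genes out of 25697 probes of 18138 symbols. A probe was tested when its detection p-value was below 0.01 on at least 24 of 32 arrays. By that filter 10 member probes of 7 genes were tested, among 10187 tested probes in all, and 6 member probes were not. Hmox1, Nqo1 and Gclc had no tested probe.

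The arrays measured mRNA in frontal cortex (FCtx) of 32 female F1 hybrids of C57BL/6J and FVB/NJ mice, 1 array per mouse. The 20 ethanol-treated mice drank from a choice of water and 20% ethanol in 3 h sessions in the dark phase on 20 days, and the 12 controls were untreated. The Methods place tissue collection 20 h after the last session, so the values were not taken during drinking, and the study places the mice in early adulthood without an exact age. The sources name no transgene or induced mutation in either group, and the ethanol dose was set by each animal's own drinking.

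Superoxide dismutases turn superoxide into hydrogen peroxide, and peroxidases then reduce the peroxide to water. Glutathione peroxidases draw electrons from glutathione, while peroxiredoxins draw them from thioredoxin. The transcription factor Nrf2 raises many genes of this system under oxidative stress by binding the antioxidant response element, and Hmox1, Nqo1 and Gclc are textbook targets of it. In the brain, ethanol is oxidized by catalase and by cytochrome P450 enzymes, and the cytochrome P450 route can generate reactive oxygen species.

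Chips 1 and 2 held 8 ethanol arrays each, and chip 4 held 8 control arrays. Chip 3 held 4 ethanol arrays at its odd positions and 4 control arrays at its even positions. Ethanol and control could therefore be compared on 1 chip only, and there treatment and position cannot be told apart. The median signal of an array was 166 to 203 in ethanol and 146 to 187 in controls, and 9480 to 11544 probes were detected per array. The array of control mouse C66, on chip 4, had the lowest median signal and the lowest signal of all 10 tested member probes. Of the fixed cortex markers, 4 of 6 genes had a tested probe, and no choroid plexus marker of 4 did.

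Over all 32 arrays, the 10 tested member probes differed little between ethanol-treated mice and controls. Hmox1, Nqo1 and Gclc had no tested probe and are not covered by this comparison. At the FDR of 1% used by the study, 0 of 10 member probes passed in limma, beside 8.19% of all tested probes, and 1 of 10 had an unadjusted p below 0.05, beside 31.7%. At an FDR of 10%, 1 of 10 passed, Prdx1 probe 1, beside 25.3% of all tested probes. It was higher by 0.11 on the log2 scale, a 1.08-fold difference. The other 9 probes had differences between -0.089 and 0.057, and of all 10 the difference was above 0 for 4 and below 0 for 6. The median size of the difference was 0.057 over the member probes and 0.054 over all tested probes, so the members moved about as far as a typical probe. For Sod2 and Sod1 the small values over all arrays combine opposite signs, as described below. Sod2 was at 0.34 on chip 3 and at -0.16 between chips 1 and 2 and chip 4, and Sod1 at -0.12 and 0.12. In bulk tissue, fewer cells of a type and less RNA per cell cannot be told apart.

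**Figure D1:**
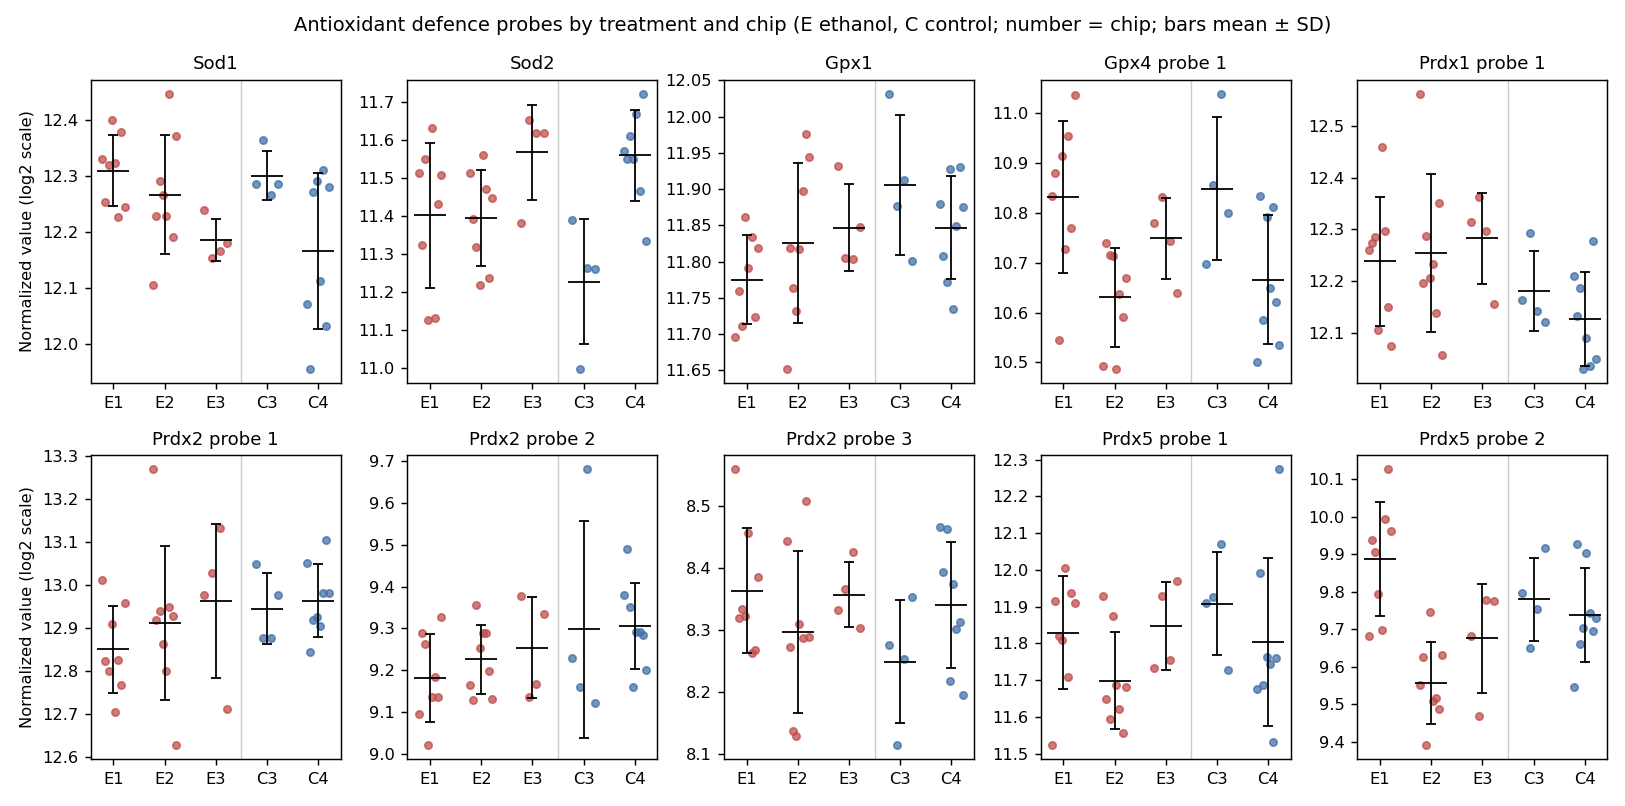
Normalized value (log2 scale, own range in each panel) of the 10 tested member probes on each array, by treatment (E ethanol, C control) and chip (number), with mean and SD. Sod2 is lowest in the controls of chip 3, with a mean of 11.23, and the ethanol and control arrays of chip 3 do not overlap for Sod1.

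Prdx1 is a cytosolic peroxiredoxin and the member with the only call over all arrays. The table holds 2 Prdx1 probes, of which only probe 1 was detected. The first 30 of the 50 bases of each are shown because these stretches decide what was measured, and the values below belong to the first of them.
Prdx1 probe 1: ggtctgagctgtgttttgggcagaccaatc
Prdx1 probe 2: gagacaggatctctcactgatctagaactt
Per the file, probe 1 starts at base 824 and probe 2 at base 1177, in different versions of the Prdx1 transcript record, so that these positions share no scale. Probe 1 gave normalized values of 12.06 to 12.56 with a median of 12.27 in the 20 ethanol arrays, and of 12.03 to 12.29 with a median of 12.14 in the 12 controls. The groups overlapped, with 17 of 20 ethanol arrays above the control median and 7 above every control. The means were 12.25 ± 0.13 (SD, n = 20) and 12.14 ± 0.087 (SD, n = 12). The difference of 0.11 had an SE of 0.041, a 95% confidence interval of 0.026 to 0.19 and an adjusted p of 0.0576 by limma. It ranked 2015th by p among the 10187 probes. Probe 2 was detected on 0 of 32 arrays, with signals between 131.2 and 206.7, so it has only an upper bound and says nothing of the difference.

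The Prdx1 call was lost under several other settings. Within chip 3 the difference was 0.10 (SE 0.06, adjusted p = 0.303), and with chip as a random block over all arrays it was 0.11 (adjusted p = 0.215). With odd or even position as a covariate the difference was 0.078 (adjusted p = 0.141), and without mouse C66 it was 0.10 (adjusted p = 0.104). Prdx1 probe 1 was lower at even than at odd positions on each of the 4 chips, by 0.10, 0.21, 0.10 and 0.13. Within chips 1, 2 and 4, where treatment does not vary on a chip, even minus odd was -0.15 (SE 0.041, adjusted p = 0.0192). The control arrays lay at 8 even and 4 odd positions, and the ethanol arrays at 8 even and 12 odd ones.

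Of the superoxide dismutases, Sod1 encodes the copper and zinc enzyme of the cytosol and Sod2 the manganese enzyme of the mitochondrial matrix. Each had 1 probe, detected on 32 of 32 arrays, and each behaved differently on chip 3 and on the other chips.
Sod1: cggtgtggccaatgtgtccattgaagatcg
Sod2: gcactatgactggggtgctgtagtctttat
These are the first 30 bases of each probe, which start at base 395 of the Sod1 transcript and at base 803 of the Sod2 transcript. Over all 32 arrays, Sod2 ranged from 11.13 to 11.65 with a median of 11.46 in ethanol and from 10.997 to 11.72 with a median of 11.51 in controls. Sod1 ranged from 12.10 to 12.45 with a median of 12.25 in ethanol and from 11.96 to 12.36 with a median of 12.28 in controls. The groups overlapped over most of their range for both genes, and limma gave -0.017 (adjusted p = 0.886) for Sod2 and 0.057 (adjusted p = 0.327) for Sod1.

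On chip 3, Sod2 was the member probe that passed an FDR of 10%, 1 of 10 beside 16.9% of all tested probes. The 4 ethanol arrays gave 11.38, 11.65, 11.62 and 11.62, and the 4 controls 11.39, 10.997, 11.26 and 11.26. The ethanol arrays were the higher ones, with the lowest of them, mouse A46, just under the highest control. The difference was 0.34 (SE 0.081, 95% confidence interval 0.17 to 0.51, adjusted p = 0.0185 by limma), or 1.27-fold. Leaving out each array of the chip in turn gave 0.26 to 0.40, with adjusted p from 0.00836 to 0.0596.

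Sod1 lay the other way on chip 3. Its ethanol arrays gave 12.24, 12.15, 12.17 and 12.18, and its controls 12.29, 12.37, 12.27 and 12.29. Every ethanol array was below every control, which makes Sod1 the member without overlap on this chip, 1 of 10 beside 15.2% of all tested probes. The difference of -0.12 (SE 0.051) missed an FDR of 10%, with an adjusted p of 0.163 by limma.

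Between the 16 ethanol arrays of chips 1 and 2 and the 8 controls of chip 4, the signs of both dismutases were opposite to those on chip 3. There 0 of 10 member probes passed an FDR of 1% in limma, beside 11.8% of all tested probes, and 4 of 10 had an unadjusted p below 0.05, beside 36%. The same number, 4 of 10, passed an FDR of 10%, beside 31.6%. Sod2 was lower in ethanol by 0.16 (-0.16, SE 0.06, adjusted p = 0.0489), with 15 of 16 ethanol arrays below the control median. Sod1 was higher by 0.12 (SE 0.046, adjusted p = 0.0527), with 14 of 16 above it. Prdx1 probe 1 was higher by 0.12 (SE 0.052, adjusted p = 0.0904). Prdx2 probe 2 was lower, with a difference of -0.10 (SE 0.043, adjusted p = 0.0845). All 4 lost an FDR of 10% when arrays were scaled by their medians in place of quantile normalization, where 14.7% of all tested probes passed. The values were then 0.13 (adjusted p = 0.242) for Sod1, 0.14 (adjusted p = 0.39) for Prdx1 probe 1, -0.13 (adjusted p = 0.47) for Sod2 and -0.056 (adjusted p = 0.675) for Prdx2 probe 2. In this comparison treatment and chip cannot be told apart.

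**Figure D2:**
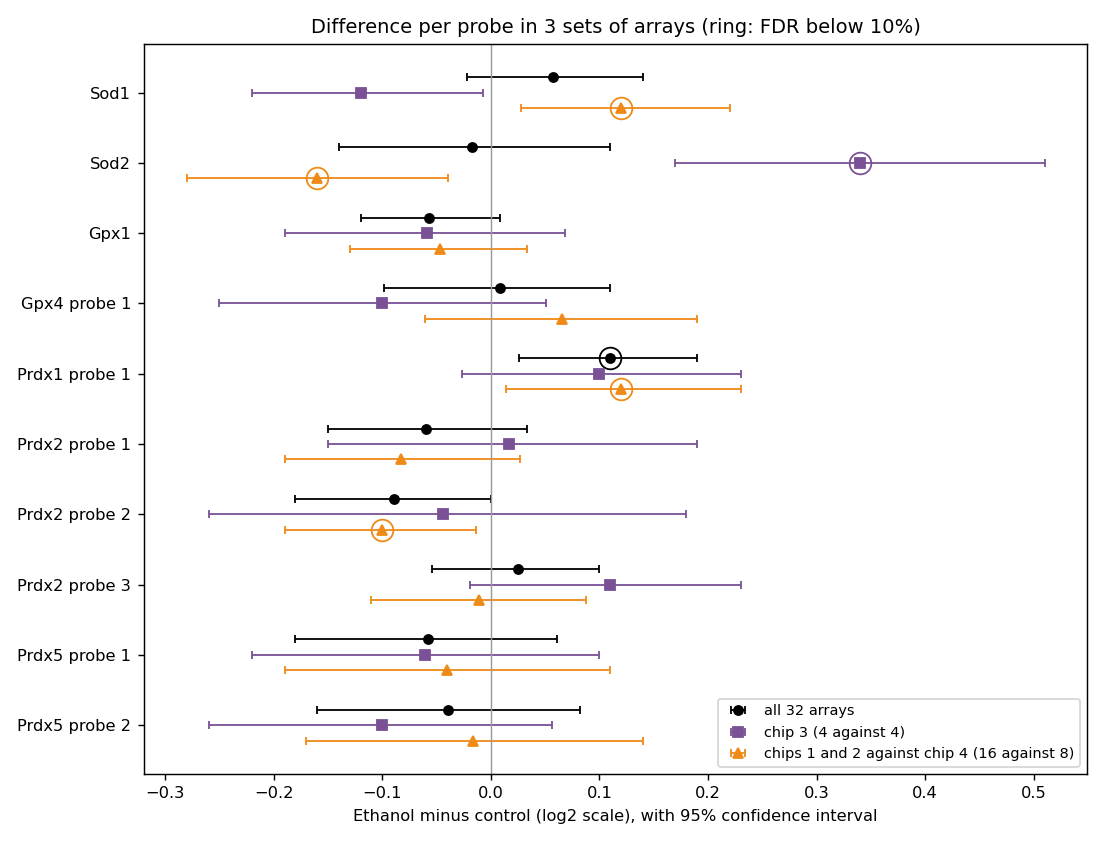
Ethanol minus control (log2 scale) with 95% confidence interval for each tested member probe, over all 32 arrays (circles), on chip 3 (squares) and between chips 1 and 2 and chip 4 (triangles), with a ring where the FDR was below 10%. Sod2 stands at 0.34 on chip 3 and at -0.16 between the other chips, and Sod1 at -0.12 and 0.12.

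The difference between the effects was tested directly, with no array shared by the 2 sides. For Sod2 the effect on chip 3 exceeded that between the other chips by 0.50 (SE 0.12, 95% confidence interval 0.26 to 0.74, adjusted p = 0.00543), or 1.41-fold, and Sod2 was the member probe that passed an FDR of 1%, beside 3.53% of all tested probes. For Sod1 the difference was -0.24 (SE 0.081, adjusted p = 0.0534), so that 2 of 10 passed an FDR of 10%, beside 16.4%. The other 8 probes had adjusted p of 0.309 or more. With odd or even position as a covariate, Sod2 gave 0.35 (adjusted p = 0.0793) and Sod1 -0.19 (adjusted p = 0.248). With median scaling Sod2 gave 0.41 (adjusted p = 0.21).

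The controls alone differed in Sod2 between chips. The 8 controls of chip 4 ranged from 11.33 to 11.72, and the 4 controls of chip 3 from 10.997 to 11.39. Chip 3 minus chip 4 was -0.33 (SE 0.075, adjusted p = 0.00879), and Sod2 was the member probe that passed an FDR of 1% in this comparison of untreated mice, beside 4.44% of all tested probes. The controls of chip 3 lay at even positions and those of chip 4 at both, so this difference includes position. At even positions the means were 11.23 ± 0.17 (SD, n = 4) on chip 3 and 11.48 ± 0.10 (SD, n = 4) on chip 4, a comparison that was not tested. The 8 controls of chip 4 had a mean of 11.56 ± 0.12 (SD, n = 8), and the 4 ethanol arrays of chip 3 one of 11.57 ± 0.12 (SD, n = 4).

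Position on the chip moved with several members. Within chips 1, 2 and 4, Gpx4 probe 1 was higher at even positions by 0.17 (SE 0.04, adjusted p = 0.00764), the member probe that passed an FDR of 1% beside 3.87% of all tested probes. At an FDR of 10%, 4 of 10 member probes passed, beside 20.1%. Besides Gpx4 these were Prdx1 probe 1, Sod2 at -0.15 (SE 0.049, adjusted p = 0.0424) and Prdx2 probe 3 at -0.10 (SE 0.041, adjusted p = 0.087). Sod2 was lower at even positions on each of the 4 chips, by 0.26, 0.03, 0.34 and 0.17, of which the difference of 0.34 is the one on chip 3 that coincides with treatment.

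**Figure D3:**
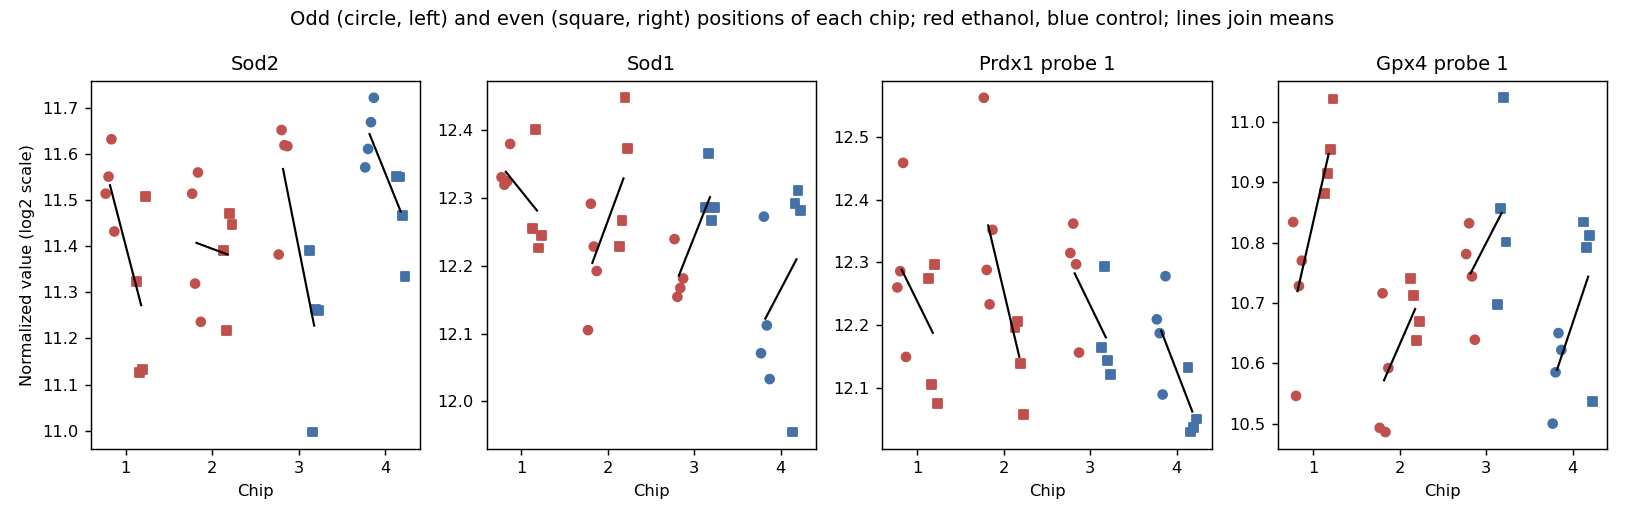
Normalized value (log2 scale) of Sod2, Sod1, Prdx1 probe 1 and Gpx4 probe 1 at the odd (circles) and even (squares) positions of each chip, ethanol in red and control in blue, with lines between the means. Sod2 and Prdx1 probe 1 fall and Gpx4 probe 1 climbs from odd to even on all 4 chips, including the 3 chips of a single treatment.

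Some marker lists of other cells and of neighbouring tissue moved on chip 3 together with Sod2, and others moved little. Of 9 tested oligodendrocyte markers, 6 were lower in ethanol at an FDR of 10%, beside 17.5% of all tested genes in either direction, with a median difference of -0.38 and a mean level of 10.28 to 10.48 in the 4 ethanol arrays against 10.40 to 11.09 in the 4 controls. Of 4 tested olfactory bulb markers out of 7, 2 were higher at an FDR of 1%, beside 3.03% of all tested genes, with a median of 0.365 and levels of 8.64 to 8.96 against 8.03 to 8.51, while Omp, a marker of olfactory sensory neurons in that list, was detected on 0 arrays. Of 8 tested astrocyte markers 4 were higher at an FDR of 10% and 0 lower, with levels of 10.88 to 10.97 against 10.67 to 10.76, and of 4 cortex markers 2 were lower, with levels of 10.98 to 11.13 against 11.19 to 11.43. Of 5 tested endothelial markers 2 were higher at an FDR of 10% and 0 lower, with levels of 9.32 to 9.44 against 9.24 to 9.27. One of them, Cldn5, was at 0.44 (adjusted p = 0.00306) on chip 3 and at -0.30 (adjusted p = 0.00061) between the other chips. Of 5 tested neuron markers 1 was higher at an FDR of 10% and 0 lower, with a median of 0.014. Of 10 microglia and macrophage markers 0 were higher and 1 was lower (median 0.008), and of 3 blood markers 0 passed (median -0.043). Within chips 1, 2 and 4 the median even minus odd difference was 0.146 for the oligodendrocyte markers and -0.231 for the olfactory bulb markers. Their part in the Sod2 and Sod1 values was not tested.

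The glutathione peroxidases did not pass an FDR of 10% in any of the 3 comparisons of ethanol with control. Gpx1 encodes the abundant cytosolic selenoenzyme. It ranged from 11.65 to 11.98 with a median of 11.81 in ethanol and from 11.73 to 12.03 with a median of 11.88 in controls. Its difference was -0.057 (SE 0.032, 95% confidence interval -0.12 to 0.0082, adjusted p = 0.22) over all arrays, -0.059 on chip 3 and -0.047 between the other chips. It had the smallest spread of the tested members, a pooled SD of 0.0841, at the 17.3 percentile of all tested probes.

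Gpx4 encodes the enzyme that reduces lipid peroxides in membranes. Its probe 1 spans an exon junction, per the positions in the file, with 29 bases before and 21 after it, and the file marks it as shared by the isoforms. Its bases 15 to 44 are shown, with those after the junction in capitals.
Gpx4 probe 1: gggcatgctgggaaaTGCCATCAAATGGAA
Gpx4 probe 2: tctgctgcaagagcctccccagtactgcaa
Probe 2, shown by its first 30 bases and marked in the file as specific to an isoform, was detected on 15 of 32 arrays (7 ethanol, 8 control) and was not tested. Probe 1 ranged from 10.49 to 11.04 with a median of 10.73 in ethanol and from 10.50 to 11.04 with a median of 10.75 in controls. These ranges coincided, with a difference of 0.0082 (SE 0.053, adjusted p = 0.936). Without the array of mouse C66 it was -0.0092. Its difference between the ethanol arrays of chip 1 and of chip 2, 0.20 (SE 0.06, adjusted p = 0.111), was larger than any it showed with treatment.

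Prdx2 is a cytosolic peroxiredoxin abundant in red blood cells and neurons. Its 3 probes were detected on all 32 arrays.
Prdx2 probe 1: aagggtgtccttcgccagatcacagtcaat
Prdx2 probe 2: gcttgtgcaactgactctgtagttatgcct
Prdx2 probe 3: ctgagcatggtgggacacagtgagaccaaa
Per the file they start at bases 524, 1019 and 1091, where the first position refers to a later version of the transcript record than the other 2, and they are numbered by signal. Over all arrays the differences were -0.06 (adjusted p = 0.383), -0.089 (adjusted p = 0.159) and 0.025 (adjusted p = 0.70) in that order. Probe 1 ranged from 12.63 to 13.27 in ethanol and from 12.84 to 13.10 in controls, probe 2 from 9.02 to 9.38 and from 9.12 to 9.68, and probe 3 from 8.13 to 8.56 and from 8.11 to 8.47. All 3 overlapped between the groups. Over the 32 arrays, with values centred within chip and treatment, probes of this gene were little related to each other. Pearson's r was -0.20 between probes 2 and 1, 0.34 between probes 1 and 3 and -0.02 between probes 2 and 3, with Spearman's rho of -0.22, 0.29 and -0.01. Their permutation p were 0.24, 0.092 and 0.93 for r and 0.27, 0.12 and 0.95 for rho. Adjusted over 25 pairs they were 0.58, 0.46 and 0.96 for r and 0.76, 0.62 and 0.95 for rho. Without the 2 arrays farthest from the median of the first-named probe of each pair, r was -0.11, 0.26 and -0.07.

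Prdx5 is found in mitochondria, peroxisomes and cytosol. Its probe 1 spans an exon junction after base 13, marked by capitals below, and probe 2 lies within an exon per the file's positions.
Prdx5 probe 1: cgtcggctgaaaaGGTTCTCCATGGTGATA
Prdx5 probe 2: ctgtctgagcgttaatgacgtctttgtgat
Over all arrays the differences were -0.058 (SE 0.059, adjusted p = 0.532) and -0.039 (adjusted p = 0.694). Probe 1 ranged from 11.52 to 12.01 in ethanol and from 11.53 to 12.27 in controls, its highest value being that of mouse C66 at 12.27. The largest difference at Prdx5 was between ethanol-treated mice on different chips. Probe 2 ranged from 9.68 to 10.13 on chip 1 and from 9.39 to 9.75 on chip 2, a difference of 0.33 (SE 0.062, adjusted p = 0.0236 by limma), or 1.26-fold. It was the member probe that passed an FDR of 10% between these chips, beside 2.0% of all tested probes, and it ranked 11th of 10187. Probe 1 differed in the same direction by 0.13 (SE 0.066, adjusted p = 0.365).

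The spread between mice was not the same for all members. Sod2 (pooled SD 0.181), Prdx5 probe 2 (0.174), Prdx5 probe 1 (0.171) and Gpx4 probe 1 (0.151) lay at the 92.3, 90.7, 90.3 and 84.2 percentiles of all tested probes, whose median SD was 0.11. Sod1 and Prdx2 probe 3 had an SD of 0.107. Of the pairs of different members, Sod1 and Prdx1 probe 1 were the most closely related, inversely, with r = -0.49 and rho = -0.45 over 32 arrays centred within chip and treatment. The permutation p was 0.0071 for r and 0.017 for rho, and after adjustment over 25 pairs 0.18 and 0.26. Without the 2 arrays farthest from the median of Sod1, r was -0.51, and centred also by position it was -0.41.

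The 3 members named above as textbook Nrf2 targets were at or below the detection limit in FCtx. Hmox1 encodes the inducible heme oxygenase, Nqo1 a quinone reductase, and Gclc the catalytic subunit of the enzyme that starts glutathione synthesis. The lowest signal among detected probes of an array was between 160 and 224.
Hmox1: agggagatacctgacacagttccctcacca
Gclc: gtccagagttacttggatcaggatttagaa
Nqo1 probe 1: ctatcaccactgggggtagcggctccatgt
Nqo1 probe 2: aaaaggaagttcaagaggagcagaagaaga
Hmox1 was detected on 0 of 32 arrays, with signals of 125.9 to 197 and a median of 156.5. Gclc was detected on 1 ethanol array, with signals of 138.6 to 219.7. Nqo1 probe 1 was detected on 21 arrays, 12 of 20 ethanol and 9 of 12 control, with a median signal of 199.8, and probe 2 on 0, with a median of 154.6. No fold change is given for these probes. Hmox1, Gclc and Nqo1 probe 2 have only upper bounds on most or all arrays, Nqo1 probe 1 was detected on too few arrays to be tested, and a change below the detection limit could not have been seen.

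**Figure D4:**
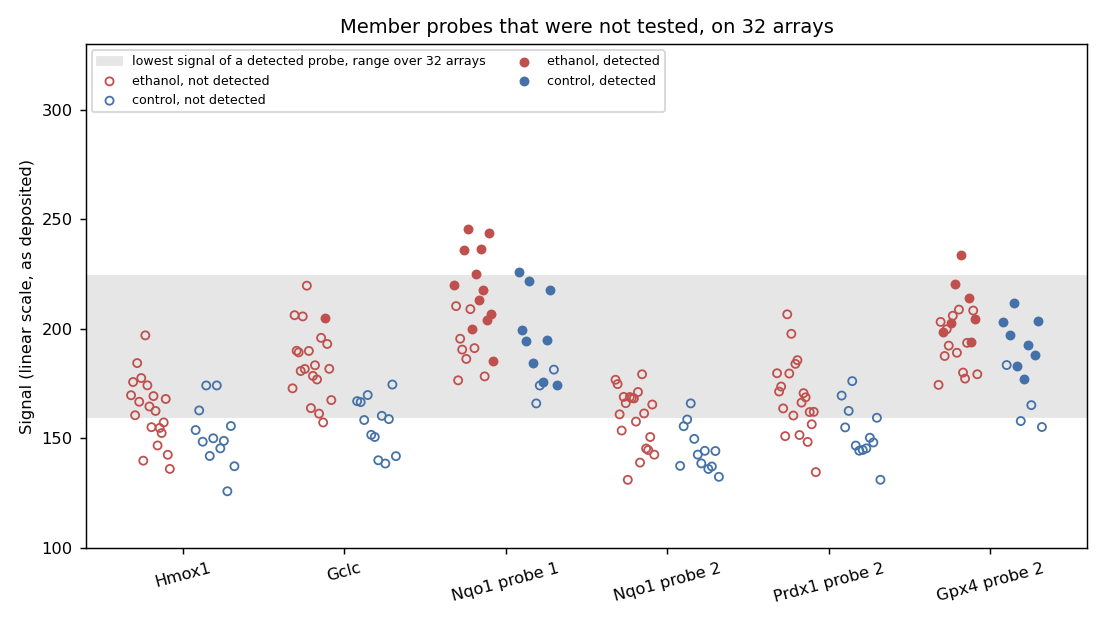
Deposited signal (linear scale) of the 6 untested member probes on 20 ethanol (red) and 12 control (blue) arrays, filled where detected, with a band at 160 to 224 for the range over arrays of the lowest signal of a detected probe. Hmox1, Nqo1 probe 2 and Prdx1 probe 2 have no filled point, Gclc has 1, and Nqo1 probe 1 and Gpx4 probe 2 lie across the band.

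The core of the antioxidant response element, TGACNNNGC, was looked for on both strands in RefSeq promoter windows (build GRCm38.p6) from 250 bases before to 50 after each transcript start. Of the members, 8 had a window, 11 windows in all, while Hmox1 and Gclc had none in the table. The motif was present for Prdx1 and Sod1, in 1 window each, and in 12.4% of all 32851 windows. That share counts windows, and a share over genes is not given. The stretches below, from the plus strand with the motif in capitals and on the reverse strand, are shown because they hold the motif. The windows of Sod2, Gpx1, Gpx4, Prdx2, Prdx5 and Nqo1 did not hold it, and bases outside the windows were not searched.
Prdx1, chr4:116685441-116685499: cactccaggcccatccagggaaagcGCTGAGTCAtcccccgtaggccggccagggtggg
Sod1, chr16:90220681-90220739: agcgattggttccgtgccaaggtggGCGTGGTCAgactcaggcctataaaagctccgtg
The motifs lie 133 bases before the start of Prdx1 and 56 before that of Sod1. A match of letters is a description and no evidence of binding.

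Around the members, 93 further genes of the system were listed, of which 61 had a tested probe. At an FDR of 1% over all arrays 1 was higher and 3 were lower in ethanol, 6.56% beside 8.0% of all tested genes by their brightest probe. At an FDR of 10%, 1 was higher and 15 were lower, 26.2% beside 24.7% of all tested genes. With median scaling these counts were 1 higher and 3 lower, where 10.4% of all tested probes passed. With chip as a block and position in the fit they were 0 and 0, where 0.0393% of all tested probes passed.

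The gene that was higher was Slc7a11, the cystine carrier that feeds glutathione synthesis. It ranged from 8.67 to 9.30 in ethanol and from 8.69 to 8.98 in controls, a difference of 0.19 (SE 0.047, adjusted p = 0.00442 by limma), and was also higher on chip 3 (0.30, adjusted p = 0.0149) and between the other chips (0.16, adjusted p = 0.047). It also moved with position within chips 1, 2 and 4 (even minus odd -0.14, adjusted p = 0.0486), and with chip as a block and position in the fit it was 0.15 (adjusted p = 0.653). It missed an FDR of 1% without mouse C66 (0.18, adjusted p = 0.0111) and with median scaling (0.21, adjusted p = 0.0341). The genes that were lower at an FDR of 1% were Mt1 and Mt3, metallothioneins that bind zinc and copper, and Glrx5, a mitochondrial glutaredoxin of iron-sulfur cluster assembly. Mt1 ranged from 13.78 to 14.28 in ethanol and from 14.17 to 14.41 in controls, a difference of -0.26 (SE 0.043, adjusted p = 0.000192), and was lower on chip 3 too (-0.24, adjusted p = 0.0291). Mt3 and Glrx5 differed by -0.23 (adjusted p = 0.000744) and -0.24 (adjusted p = 0.000537) over all arrays, and by -0.04 on chip 3 in each case, with adjusted p of 0.736 and 0.757. Between the other chips, where treatment coincides with chip, limma gave -0.32 (adjusted p = 4.86e-05) for Mt3 and -0.33 (adjusted p = 9.64e-06) for Glrx5. Mt1 was at -0.25 there (adjusted p = 0.00127). With chip as a block and position in the fit, Mt1 was -0.15 (adjusted p = 0.65), Mt3 0.02 (adjusted p = 0.965) and Glrx5 0.01 (adjusted p = 0.973). The difference of the effects between chip sets was not tested for these genes. Over the same 32 arrays, 3 of 4 tested cortex markers were lower in ethanol at an FDR of 1%, beside 8.0% of all tested genes, with a mean level of 10.98 to 11.26 against 11.19 to 11.43 in controls. At an FDR of 10%, 3 of 8 astrocyte markers (levels of 10.69 to 10.99 against 10.67 to 11.03) and 2 of 5 endothelial markers (9.24 to 9.44 against 9.22 to 9.38) were higher and 0 lower, beside 24.7% of all tested genes. At the same FDR 1 of 5 neuron markers was higher, and 1 of 9 oligodendrocyte and 1 of 10 microglia and macrophage markers were lower. Of 3 blood and 4 olfactory bulb markers 0 passed. The part of these markers in the values above was not tested.

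The counts below are of genes that passed an FDR of 10% over all arrays, to be read beside 24.7% of all tested genes, and the lists were not tested against each other. Of the enzymes and co-factors, 0 of 19 were higher and 3 lower, and the largest rise there, that of Cat (catalase), was 0.03 (adjusted p = 0.658). Of the glutathione genes 1 of 19 was higher and 5 were lower, the lowest being Gstk1 at -0.13 (adjusted p = 0.0648). Of the genes of Nrf2 control and its targets 1 of 19 was higher and 3 were lower, the lowest being Mafg, a small Maf partner of Nrf2, at -0.19 (adjusted p = 0.0165). Nfe2l2, which encodes Nrf2, was detected on 11 of 32 arrays and was not tested. Of 4 selenoprotein synthesis genes 2 were lower, the lowest being Scly at -0.10 (adjusted p = 0.0343). Of the 3 metallothioneins 2 were lower, Mt1 and Mt3, while Mt2 was at -0.05 (adjusted p = 0.295). Of the superoxide-producing oxidases only Cyba was tested, at -0.08 (adjusted p = 0.134).

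**Figure D5:**
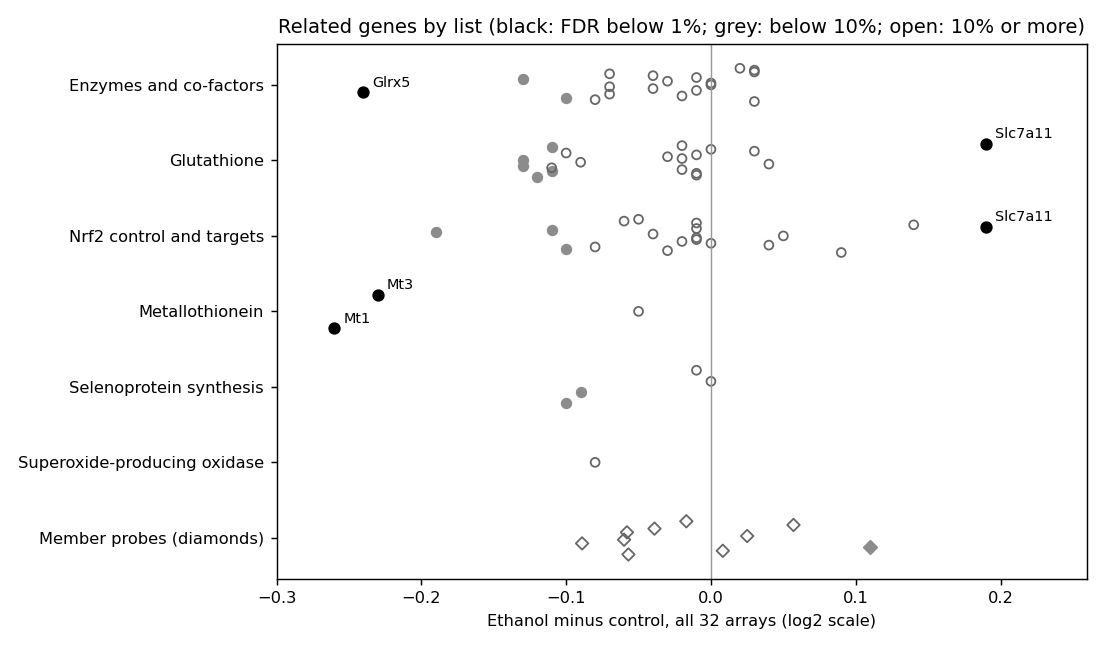
Ethanol minus control over all 32 arrays (log2 scale) for each tested gene of the 6 related lists and for the 10 tested member probes (diamonds), black where the FDR was below 1%, grey where below 10%, open otherwise. The members lie between -0.089 and 0.11, inside the range of the listed genes from -0.26 (Mt1) to 0.19 (Slc7a11).

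For each tested member, the genes whose values followed it most closely over the 32 arrays, centred within chip and treatment, were named as a description. The highest Pearson's r were 0.79 for Gpx4 probe 1 with Fez1 and 0.79 for Prdx1 probe 1 with Phf5a, and with position also removed they were 0.64 and 0.66. Sod2 followed Pick1 (r = 0.69), Gpx1 followed Rgs4 (0.70), Prdx5 probe 1 followed Slc39a7 (0.75) and Sod1 followed Sepn1 (0.62). No other member was among the 2 genes closest to any member.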

How the data were processed

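The authors deposited a bead summary table of the Illumina MouseRef-8 v2.0 arrays with, per probe and array, the signal intensity on a linear scale (not normalized), the detection p-value, and as other values the bead standard error and bead number. The labels name lumi and limma, without versions, for the authors' own processing. The software behind the deposited signals is not given in the sources used here. From them a variance-stabilizing transform (after the one in the Methods) and quantile normalization were computed in R 4.3.3 (package data.table, version 1.17.8), which gives values on a log2 scale that compresses low signals. Groups were compared by limma 3.58.1 without covariates, two-sided, with Benjamini-Hochberg adjustment over 10187 probes detected (p-value below 0.01) on at least 24 of 32 arrays. Levels were not compared between probes. Correlations used 100000 permutations within chip and treatment, in Python 3.11.15 (scipy 1.17.1, numpy 2.4.6, pandas 2.3.3), and plots were drawn with matplotlib 3.10.9. Alternatives were the transform, background correction, median scaling, probe filter, array weights, chip, position and single arrays left out. The steps were also run on simulated data without differences between chips or positions, which cannot show how such differences act on these comparisons. The median SD between mice within a group was 0.11.

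The members, lists, markers and tests were chosen with earlier results of these data known. All members were named. Of the lists, genes at an FDR below 1% and the largest rise and fall of each list were named. A gene of a list is represented by its probe with the highest mean. Each array is a separate mouse, and mouse numbers pair no samples across groups. The number of beads per probe and of arrays limits the precision.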

Additional observations from a re-analysis of the deposited data

Results flagged for a closer look

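Sod2 differed between sets of arrays: its effect on chip 3 minus that between chips 1 and 2 and chip 4 was 0.50 (adjusted p = 0.00543 by limma), with ethanol higher on the former and lower in the latter. Sod1 differed the opposite way, by -0.24 (adjusted p = 0.0534), and leaving out control mouse C54 of chip 3 gave -0.22 (adjusted p = 0.121). On chip 3 treatment coincides with position, between the other chips treatment coincides with chip, and Sod2 also differed by -0.33 between untreated mice of chips 3 and 4. The part of chip and position in these values cannot be told apart from that of treatment.

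Among the 4 ethanol arrays of chip 3, mouse A46 stood apart in Sod2, at 11.38 where the others lay between 11.62 and 11.65, a gap of 0.869 of the range. It was the only such value in 50 sets checked, where chance alone gives about 1 in 20, or 2.5.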

How the results depend on the processing

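Over all arrays the count of member probes at an FDR of 1% was 0 under every alternative, and the count of 1 at an FDR of 10% was 0 with median scaling, with position as a covariate, without mouse C66, with chip as a random block, and with chip as a fixed block together with position. With chip as a fixed block, where the ethanol term rests on chip 3, the probe called was Sod2 (0.34, adjusted p = 0.0525). It stood in place of Prdx1 probe 1 (0.10, adjusted p = 0.511). With all probes of the array it was Gclc (adjusted p = 0.0845) in place of Prdx1 probe 1 (0.11, adjusted p = 0.104). The difference of Gclc is not given, because it was detected on 1 of 32 arrays. With median scaling Prdx1 probe 1 was 0.099 (adjusted p = 0.48). The share of all tested probes called at 10%, 25.3%, was 10.4% with median scaling, 27.1% with position as a covariate and 21.1% without mouse C66. It was 9.15% with all probes, 6.65% with chip as a fixed block, 9.85% as a random block and 0.0393% with block and position. On chip 3 the count of 1 was 2 with median scaling, where Sod1 also passed (-0.19, adjusted p = 0.0519), beside 16.9% of all tested probes in both settings. It was 1 without each array in turn, beside 9.87% to 17.1%. Between chips 1 and 2 and chip 4 the count was 4 at 10%, beside 31.6% of all tested probes. It was 2 with normexp, 0 with median scaling and 2 with all probes, beside 31%, 14.7% and 12%. It was 3 with log2 of the signal, with array weights and without mouse C66, beside 32.1%, 33.2% and 27.8%. These alternatives were chosen after seeing the data, as were those for the difference of effects. Median scaling moved the calls at 1% between those chips from 596 higher and 607 lower to 351 and 49, and on chip 3 from 136 and 153 to 61 and 294. The lists' 1 higher and 15 lower genes were 1 and 5 under a fixed block for chip and 1 and 6 under a random one, beside the 6.65% and 9.85% above.

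Signs that turned were mostly those of small differences. With a fixed block for chip, the ethanol term rests on chip 3, the only chip with both groups. It gave Sod1 -0.12, Sod2 0.34, Gpx4 probe 1 -0.10 and Prdx2 probe 1 0.017, the same values as on chip 3 alone. Block and position together gave Sod1 -0.064, Sod2 0.19, Prdx1 probe 1 -0.044 and Prdx5 probe 1 0.0058. A random block gave Sod2 0.061 and Gpx4 probe 1 -0.015. Gpx4 probe 1 was -0.0018 with array weights and -0.0092 without mouse C66, and Prdx2 probe 3 was -0.0029 with position. On chip 3, Prdx2 probe 1 was -0.026 with median scaling. Between the other chips, median scaling gave Prdx2 probe 3 0.017 and Prdx5 probe 2 0.028, and Prdx5 probe 1 was 0.0062 with array weights and 0.028 without mouse C66. In the difference of effects, position as a covariate gave Gpx1 0.045, Gpx4 probe 1 0.0011, Prdx5 probe 1 0.045 and Prdx5 probe 2 0.0092, and median scaling gave Prdx2 probe 2 -0.039. With single arrays of chip 3 left out, the chip 3 value ran from -0.10 to 0.084 for Prdx2 probe 2 and from -0.039 to 0.10 for Prdx2 probe 1, and the difference of effects from -0.047 to 0.03 for Gpx1, from -0.044 to 0.024 for Prdx1 probe 1, from -0.00057 to 0.19 for Prdx2 probe 2 and from -0.082 to 0.032 for Prdx5 probe 1. Apart from the fixed block for chip, the cause of these changes was not tested. No paired analysis was possible because the groups share no replicate numbers.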
